A study of Mus musculus with 6 samples.

Results

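The proteasome is the barrel-shaped protease that breaks down ubiquitin-tagged proteins in the cytosol and nucleus. Its core particle is built from alpha rings (Psma genes) around beta rings (Psmb genes), and the beta subunits encoded by Psmb5, Psmb6 and Psmb7 carry the cutting sites. In cells exposed to interferon-gamma, and in many resting immune cells, those sites are replaced by Psmb8, Psmb9 and Psmb10, giving the immunoproteasome, whose cleavage products feed MHC class I antigen presentation. The regulatory cap, with its ATPases (Psmc genes) and its base and lid subunits (most Psmd genes), recognises and unfolds substrates, while Psme1 and Psme2 encode the PA28 activator that opens the barrel without ubiquitin.

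All genes of the deposited RNA table whose symbol starts with Psma, Psmb, Psmc, Psmd or Psme were taken, which gave 44 of 19848 genes. Of these, 42 encode proteasome subunits, activators or cap assembly chaperones: 15 of the core, 5 of the immunoproteasome (Psmb8, Psmb9, Psmb10, Psme1 and Psme2) and 22 of the regulatory particles. The core group comprises 8 alpha-ring genes, the 3 catalytic beta genes and 4 structural beta genes. The regulatory group comprises 6 cap ATPases, 3 base subunits without ATPase activity, 8 lid subunits, 3 assembly chaperones (Psmd5, Psmd9 and Psmd10) and 2 other activators (Psme3 and Psme4). Psmc3ip and Psme2b share the prefix without being subunits. Psmc3ip encodes a recombination factor, and Psme2b is a copy of Psme2, so that the split of reads between Psme2 and Psme2b is uncertain.

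The study profiled immune-enriched cells from whole brains of 24 female C57BL/6 mice, collected as 12 pools. There were 4 groups of 3 pools: 12-week-old vehicle controls, 12-week-old antibiotic-treated mice (ABX, which depleted the gut microbiota), 72-week-old vehicle controls and 72-week-old ABX mice. No transgene or deletion was involved, the composition of the antibiotics is not stated in the labels, and each pool joined mice of its group after papain digestion and Percoll enrichment. Pools 1 to 3 of each age carried the control hashtags and the others the ABX hashtags. All 12-week pools ran in 1 droplet well and all 72-week pools in another, so that age and well cannot be told apart.

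The table holds 13052 cells, 9403 of them microglia by the authors' annotation, with 475 to 1186 microglia per pool and 5745242 to 13742781 raw UMIs per pool over all cells. Defining markers were highest in the labelled type for 6 of 6 microglia, 6 of 6 BAM, 5 of 5 CD8+, 5 of 5 BCells, 5 of 5 Ly6CHigh and 6 of 6 Ly6C+Ly6G+ genes. In CD4+ cells 1 of 4 markers, Cd4, was highest, the shared T cell genes being higher in CD8+ cells, and all 5 natural killer genes were highest in the cells labelled ILCs, beside 4 of 5 ILC genes (Il7r was highest in CD4+ cells). In Ly6CLow cells 4 of 5 of their own markers were highest (Nr4a1 was highest in Ly6C+Ly6G+ cells), but so were 4 of 5 dendritic cell markers, namely Flt3, Zbtb46, Xcr1 and Cd209a. The 9 cells labelled NKCells were left out. All 13052 cells carry a singlet call by hashtag in the deposited metadata, and no doublet caller was run on the RNA. A set of 59 barcodes, 118 cells, occurs in both wells, and values without those cells are given where they change a result. P-values below set a difference between group means against the spread between pools, an estimate that limma moderates with all genes tested.

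Values are corrected UMI values per cell: the authors' depth-corrected number of transcript molecules of a gene, as a mean over all cells that a pool holds of a given type. The library tags only the 3′ end of each transcript, so a longer gene does not collect more UMIs, although capture can still differ between transcripts. For that reason the same gene was compared across cell types, and the order of genes within a type is a description only.

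Short promoter stretches are shown for 4 members because they carry the sequence motifs for which the proteasome genes are best known: the antioxidant response element bound by the Nrf family, the interferon-stimulated response element and the gamma-activated site. The sequences come from RefSeq (GRCm38.p6), are written 5′ to 3′ on the strand of the gene, and have the motif match in capitals.
Psmb5: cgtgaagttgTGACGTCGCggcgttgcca
Psmb6: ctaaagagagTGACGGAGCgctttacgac
Psmb8: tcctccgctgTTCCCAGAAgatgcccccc
Psme1: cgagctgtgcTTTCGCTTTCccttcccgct
The Psmb5 stretch lies at chr14:54618024-54618052 on the minus strand, with the match 47 to 39 bases before the start. The Psmb6 stretch (chr11:70525338-70525366, plus strand) has its match 9 to 1 bases before a transcript start inside the gene. The Psmb8 match is 97 to 89 bases before the start (chr17:34198088-34198116, plus strand), and the Psme1 match is 9 to 18 bases after it (chr14:55578493-55578522, plus strand), read on the other strand.

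Of the 42 members, 35 had a promoter window of 300 bases, from 250 before to 50 after the start. The others were Psma8, Psmb1, Psmb2, Psmb7, Psmc3, Psmd3 and Psmd7. The antioxidant motif TGACNNNGC, searched on both strands, occurred in 2 of 11 core windows' genes (Psmb5 and Psmb6), in 0 of 5 immunoproteasome genes and in 4 of 19 regulatory genes (Psmc6, Psmd12, Psmd9 and Psme4). It occurred in 14.0% of all 27025 genes with a window. The interferon motif, GAAA followed by any 2 bases and GAAA on either strand, was present at Psme1, at Psmb3 among the core genes and at Psmd4 and Psmd9 among the regulatory ones, against 3.99% of all genes. The palindromic motif TTCNNNGAA was present at Psmb8 and Psmd2, against 9.55% of all genes. These are letter matches and were not tested as binding sites.

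Across the cell types, immunoproteasome genes spanned the widest range of levels and cap genes the narrowest. The summed level of the 5 immunoproteasome genes was 3.32 times that of microglia in CD8+ cells (± 0.53, SD over 11 pools), 2.80 times in CD4+ cells and 2.30 times in ILCs. The core sum was highest in Ly6CHigh cells, at 2.35 ± 0.21 times microglia (n = 11 pools). The regulatory sum stayed between 0.88 and 1.35 times microglia in all types except Ly6C+Ly6G+ cells, the neutrophil-marker cells, where it was 0.62. Each ratio compares a type with microglia of the same pool, for pools with at least 10 cells of the type. No test was made between types because the authors drew the types from these same cells. The droplets of a pool also share their source. Markers of other types were present in some types. Mean S100a9 was 26.2 in BCells (957 in Ly6C+Ly6G+ cells), and mean Igkc was 14.6 in CD8+ and 12.0 in Ly6CLow cells (46.8 in BCells). Mean Gzma was 5.57 in Ly6CLow cells (18.7 in ILCs). In CD4+ cells these genes had 0.43, 0.63 and 0.44. The part of such signal in the ratios to microglia was not tested.

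Psmb8, which replaces Psmb5 at the chymotrypsin-like site, had the highest level of any member in 8 of the 9 types shown. In CD8+ cells its lowest, median and highest pool values were 5.29, 6.72 and 7.45 (n = 11). CD4+ pools lay at 5.21, 5.56 and 6.76 (n = 8), and ILC pools at 3.00, 4.26 and 5.44 (n = 11). BCells pools followed at 3.25, 3.90 and 4.96 (n = 12). All pools of these lymphoid types were above every microglia pool, which ranged from 1.28 to 1.59 with a median of 1.44. Ly6CHigh pools (2.54, 3.23 and 6.14, n = 11) and Ly6CLow pools (2.30, 3.26 and 3.91, n = 12) overlapped each other and ILCs and BCells. BAM, the Mrc1- and Pf4-expressing macrophages, lay at 1.76, 2.01 and 2.90 (n = 12), and Ly6C+Ly6G+ cells at 0.583, 1.20 and 2.10 (n = 9). The order of the means ran from CD8+ (6.51 ± 0.73) and CD4+ (5.64 ± 0.49) through ILCs (4.30 ± 0.78), BCells (4.08 ± 0.54), Ly6CHigh (3.46 ± 0.98), Ly6CLow (3.20 ± 0.54) and BAM (2.09 ± 0.34) to microglia (1.43 ± 0.093) and Ly6C+Ly6G+ cells (1.19 ± 0.44). All neighbours in that order overlapped in their pool values except BAM and microglia.

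**Figure D1:**
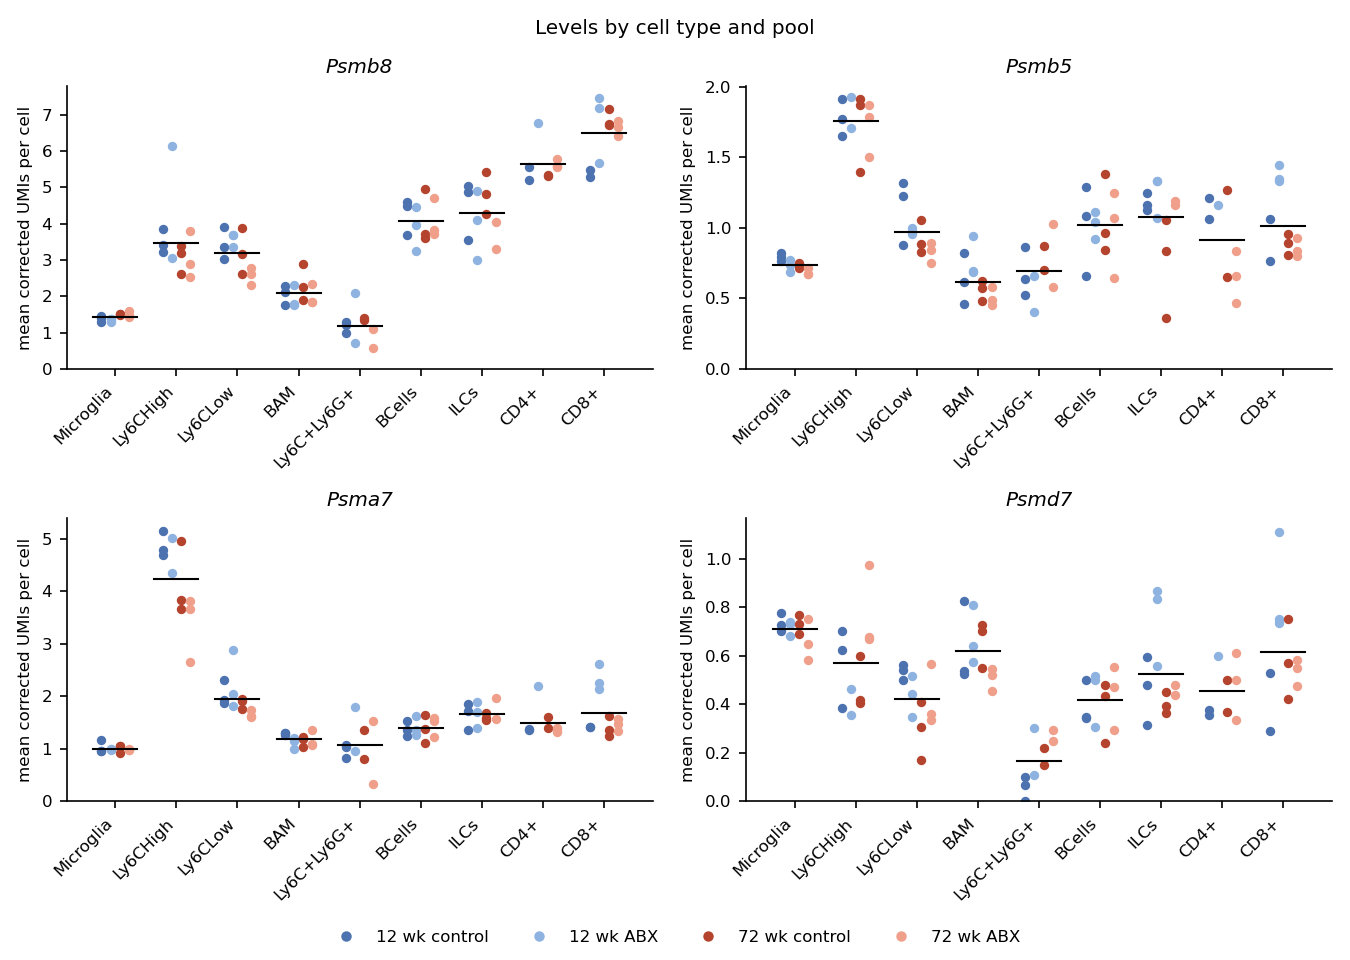
Level of Psmb8, Psmb5, Psma7 and Psmd7 (corrected UMI value per cell, vertical axis) in each annotated cell type, 1 point per pool with at least 10 cells, coloured by group, with the mean over pools as a line. Psmb8 is highest in CD8+ and CD4+ cells (means 6.51 and 5.64), Psma7 and Psmb5 in Ly6CHigh cells (means 4.24 and 1.76), and Psmd7 in microglia (mean 0.71).

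Psmb9, the replacement for Psmb6, followed the same types: 2.08 ± 0.32 in CD8+ cells and 1.91 ± 0.19 in CD4+ cells, against 0.529 ± 0.059 in microglia (3.92 and 3.55 times). Its ratio to microglia was 2.52 in BCells, 2.41 in Ly6CHigh, 1.90 in ILCs, 1.69 in BAM and 1.65 in Ly6CLow cells. Psmb10, the replacement for Psmb7, reached 1.41 ± 0.28 in CD8+ and 1.40 ± 0.31 in Ly6CHigh cells, against 0.605 ± 0.053 in microglia, and these ranges overlapped (1.20 to 2.00 and 0.929 to 1.93). Psme1, the alpha subunit of PA28, was 2.45 times microglia in CD8+ cells (3.23 ± 0.52 against 1.31 ± 0.10), and Psme2, its beta subunit, 2.67 times (1.64 ± 0.28 against 0.613 ± 0.039). In Ly6C+Ly6G+ cells Psmb10 was below microglia, at 0.52 times, with 1 of 9 pools above.

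The constitutive catalytic genes had another order. Psmb5 was 2.39 times microglia in Ly6CHigh cells (1.40, 1.79 and 1.93 as lowest, median and highest, against 0.670 to 0.820), but 1.39 times in CD8+ cells and 0.84 times in BAM. Psmb6, the caspase-like subunit, was 1.71 times microglia in Ly6CHigh and 1.28 times in CD8+ cells. Psmb7, the trypsin-like subunit, had 1.54 times the microglial level in Ly6CHigh cells, and its ratio in CD8+, CD4+ and BCells lay between 0.90 and 0.97. The T cells were thus high for the replacing subunits and near microglia for Psmb7, and Ly6CHigh cells were high for both sets.

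The share of immunoproteasome transcripts among the catalytic ones was computed as the summed level of Psmb8, Psmb9 and Psmb10 in percent of that sum plus Psmb5, Psmb6 and Psmb7. It was 79.9% ± 3.78 (SD, n = 11 pools) in CD8+ cells and 79.6% ± 2.15 (n = 8) in CD4+ cells. BCells had 71.5% ± 3.46, ILCs 70.6% ± 4.90, Ly6CLow 67.6% ± 2.87, BAM 66.7% ± 4.10 and Ly6CHigh 60.6% ± 4.53. Ly6C+Ly6G+ cells (56.7% ± 9.63, n = 9) and microglia (55.9% ± 1.58, n = 12) were lowest, and their pools overlapped. Every pool of CD8+, CD4+, BCells, ILCs, Ly6CLow and BAM lay above the microglia of the same pool, but only 8 of 11 Ly6CHigh and 5 of 9 Ly6C+Ly6G+ pools did.

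Each replaced pair contributed. Psmb8 made up 86.5% of Psmb8 plus Psmb5 in CD8+ cells and 66.0% in microglia. Psmb9 made up 66.2% of its pair in CD8+ cells and 38.7% in microglia, where the constitutive Psmb6 was therefore the more abundant. For Psmb10 the values were 76.6% and 56.9%. In BAM, the level of Psmb5 was below microglia in 10 of 12 pools while Psmb8 was above in all 12, and the share of Psmb8 in that pair was 77.0%. Beside the values in BAM, the microglial markers summed to between 11.2 and 37.1 per pool in those cells, against 79.0 to 96.0 in microglia, and their part in the result was not tested.

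**Figure D2:**
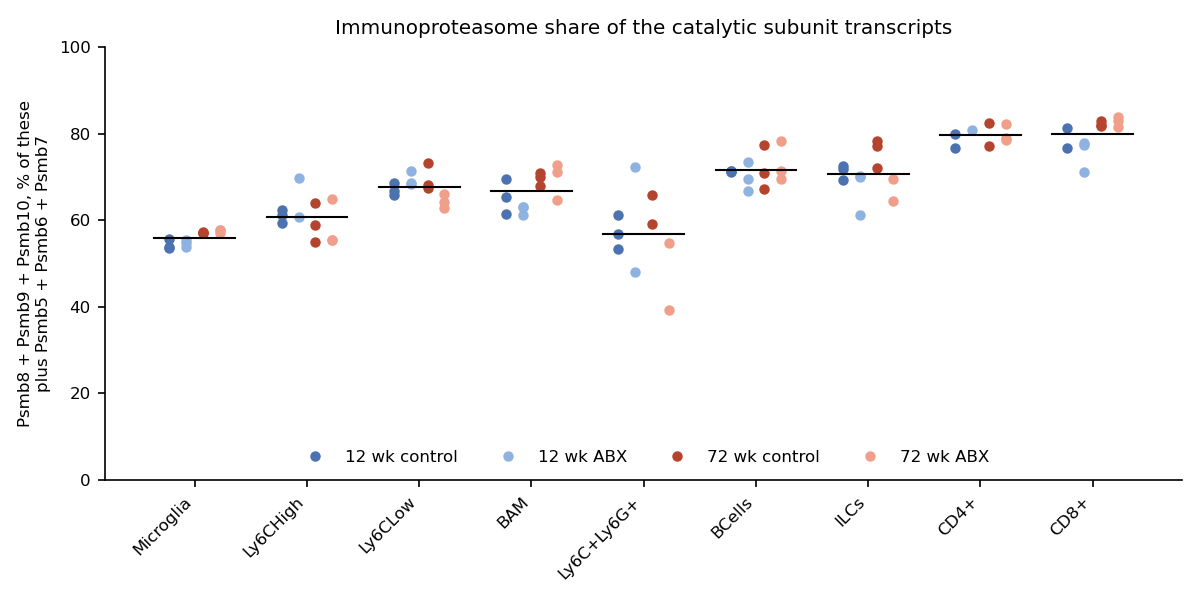
Share of Psmb8, Psmb9 and Psmb10 in the summed level of the replacing and replaced catalytic subunits (percent, vertical axis) by cell type, 1 point per pool with at least 10 cells, with the mean over pools. CD8+ and CD4+ cells lie near 80% (79.9% and 79.6%) and microglia at 55.9%, with the 72-week microglia pools (57.0% to 57.6%) above the 12-week ones (53.6% to 55.6%).

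Within microglia, the share was higher in the 72-week pools, and control and ABX pools overlapped. The 12-week control pools had 53.9%, 53.6% and 55.6%, and the 12-week ABX pools 55.3%, 53.8% and 54.6%. At 72 weeks the control pools had 57.1%, 57.0% and 57.3%, and the ABX pools 57.6%, 57.0% and 57.6%. All 6 pools of the 72-week well were above all 6 of the 12-week well, and within each age control and ABX pools overlapped. In CD8+ cells the ages were also separate, but narrowly. The share ran from 71.2% to 81.4% in the 5 pools of 12 weeks and from 81.6% to 83.8% in the 6 pools of 72 weeks. Those pools held 15 to 31 CD8+ cells at 12 weeks and 56 to 122 at 72 weeks. BAM means were 65.4% and 62.4% in the 12-week control and ABX groups and 69.56% and 69.55% in the 72-week ones, with pools that overlapped (61.1% to 69.4% and 64.7% to 72.8%). BCells, CD4+ and ILC pools overlapped between the ages as well. The group means had no such order in Ly6CLow cells (67.0%, 69.4%, 69.5% and 64.3% in the same sequence of groups) or in Ly6CHigh cells (61.0%, 65.3%, 59.3% and 58.6%). At 72 weeks the Ly6CLow ABX pools (64.1%, 62.7% and 66.0%) lay below the controls (67.3%, 68.0% and 73.2%). So did those of ILCs (64.4% and 69.5% against 71.9%, 78.4% and 77.1%) and Ly6C+Ly6G+ cells (39.3% and 54.8% against 65.9% and 59.0%). Control and ABX pools overlapped in the other types at 72 weeks, and in these types at 12 weeks. The share was not tested.

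Ly6CHigh cells had the broadest elevation. The 42 members compared between types were 14 core, 5 immunoproteasome and 22 regulatory genes and the copy Psme2b, without Psma8 and Psmc3ip. Of these, 22 were above microglia in every one of 11 pools, where 12.0% of 9589 genes were. Below microglia in every pool were 0 (19.9% of genes). The 22 above were 13 of 14 core genes, all 5 immunoproteasome genes and only 4 of 22 regulatory genes. Those 4 were the ATPase gene Psmc3, the ubiquitin receptor gene Psmd4, and the lid genes Psmd8 and Psmd13. The median log2 ratio to microglia was 1.14 for the core genes, 1.11 for the immunoproteasome genes and -0.26 for all genes. Psma7, an alpha-ring gene, led with 2.65, 4.36 and 5.15 (lowest, median and highest) against 0.919 to 1.16 in microglia, a ratio of 4.23. Without Psma7 the core sum was still 2.16 ± 0.20 times microglia. Psmd8 was 2.47 times microglia (2.13 ± 0.32 against 0.859 ± 0.023), and Pomp, the chaperone that matures the core particle, 1.73 times.

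Depth varied in these cells: 35.2% had fewer than 2000 raw UMIs, and the median was 14036 raw UMIs in the 12-week controls but 790 in the 72-week ABX cells. Among cells with at least 2000 raw UMIs, 28 of 42 members were above microglia in every one of 10 pools, where 18.9% of the same 9589 genes were, and Psma7 was at 4.91 times. Per 10000 corrected UMIs there were 23 members above in every one of 11 pools (12.6% of genes), with Psma7 at 3.98 times, and 1 below (22.8%).

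In lymphoid cells the elevated members were core and immunoproteasome genes, with few cap genes. In CD8+ cells 15 of 42 members were above microglia in every one of 11 pools (14.9% of all genes) and 0 below (27.8%). These 15 were all 5 immunoproteasome genes, 7 of 14 core genes and Psmd14, Psmd4 and Psmc4, which encode the deubiquitinating lid subunit, a ubiquitin receptor and an ATPase. In CD8+ cells with at least 2000 raw UMIs the count above was 11 (14.2% of genes). In CD4+ cells 11 were above (10.8% of genes) and 4 below (25.9% of genes), the latter being Psmd7, Psmd6, Psmd3 and the copy Psme2b. ILCs had 10 above (10.8%) and 2 below (22.0%), namely Psmd3 and Psme2b. BCells had 11 above (8.93%) and 1 below (22.3%), the lid gene Psmd7. The structural subunit Psmb1 was among the highest of these, at 2.68, 2.56, 2.36 and 2.18 times microglia in CD8+, CD4+, ILCs and BCells.

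In Ly6CLow cells 13 members were above microglia in every pool (11.8% of genes) and 2 below (21.2%), Psmd7 and Psmd3. BAM had 3 members above (6.68% of genes), namely Psma7, Psmb8 and Psmb9, and 1 below (9.76%), Psmd6. The count above was near the share of all genes, and both of these shares were the smallest of any type. The core sum in BAM was 1.02 ± 0.10 times microglia and the regulatory sum 0.88 ± 0.07 times.

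Ly6C+Ly6G+ cells had 0 members above microglia in every pool (9.10% of genes) and 11 below (38.0%), 8 of which were regulatory. Low genes were Psmd7 at 0.23 times microglia (0.165 ± 0.106 against 0.710 ± 0.055), the ATPase gene Psmc5 at 0.27 times, and the lid genes Psmd3 and Psmd12 at 0.36 times each. The median log2 ratio was -0.72 for the regulatory genes, -0.17 for the core genes and -0.82 for all genes, so that the cap genes lay near all genes and the core genes above them. Pools of this type held as few as 10 cells.

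Psmd7 had its highest mean in microglia, and it was below microglia in every pool of CD4+, Ly6CLow, BCells and Ly6C+Ly6G+ cells, with ratios of 0.66, 0.59, 0.59 and 0.23.

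**Figure D3:**
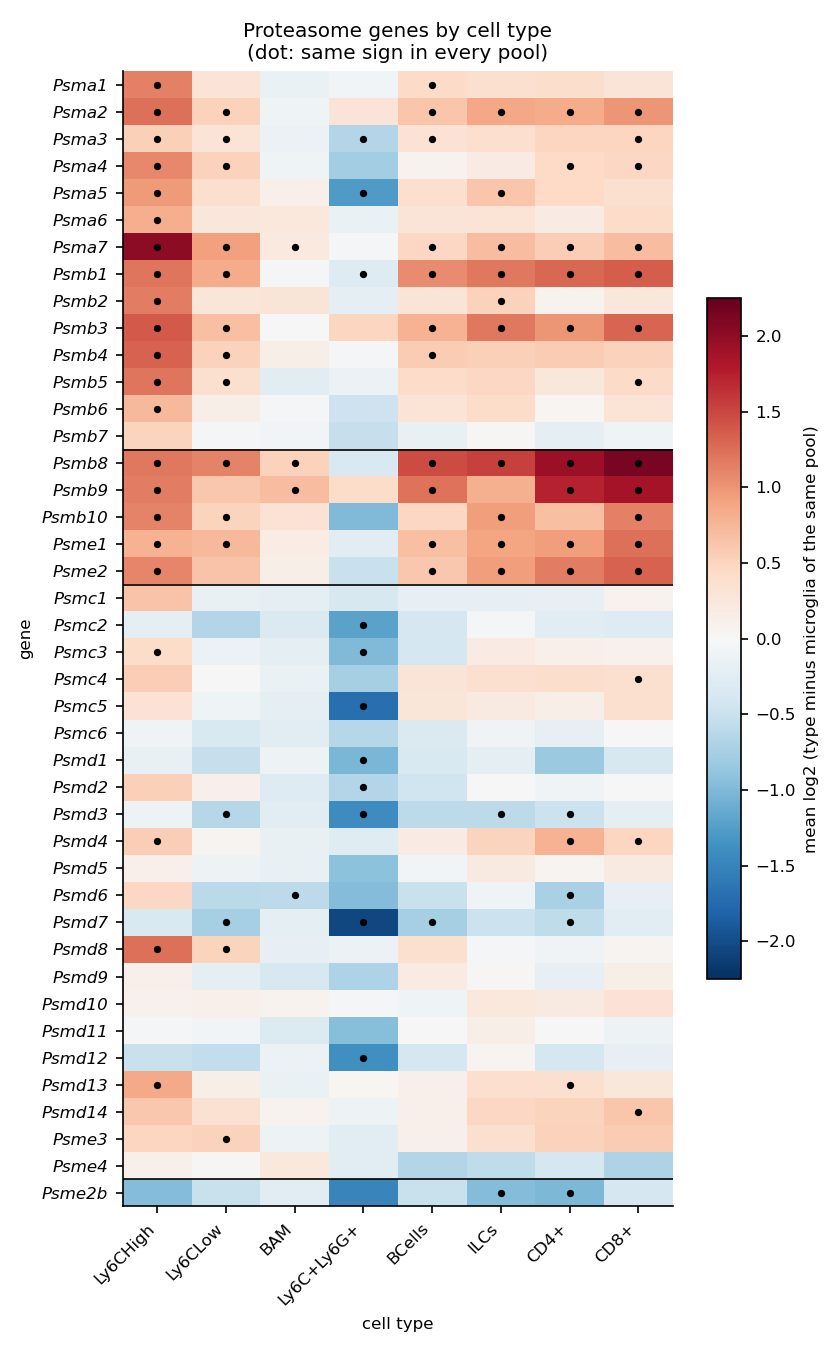
Heat map of the log2 ratio of each member (rows, grouped as core, immunoproteasome and regulatory, with Psme2b last) in each cell type (columns) to microglia of the same pools, averaged over pools; a dot marks the same sign in every pool. Red cells are concentrated in the core and immunoproteasome rows of the Ly6CHigh column and in the immunoproteasome rows of the CD8+ and CD4+ columns. The Ly6CHigh column has 22 dots for higher values: 13 core, 5 immunoproteasome and 4 regulatory.

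The genes Psmb9 and Psmb8 lie side by side in the MHC region with the peptide transporter genes: Psmb9 at chr17:34182030-34187330, Tap1 at chr17:34187556-34197225, Psmb8 at chr17:34198195-34201454 and Tap2 at chr17:34204479-34216321 (GRCm38.p6). Tap1 was above microglia in every pool of BAM, BCells, CD4+, CD8+ and Ly6CLow cells. Its ratio was 3.79 in CD8+ cells, 3.18 in CD4+ cells and 1.83 in BAM. Psmb10 is on another chromosome (chr8:105935728-105938392), and Psme1 and Psme2 are neighbours at chr14:55578494-55581527 and chr14:55587440-55591101. The end of Psme1 overlaps Emc9, and whether the authors' counting used strand is not given in the sources used here.

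In microglia the highest core members were Psma3 (1.24 ± 0.066 over 12 pools), Psmb1 (1.03 ± 0.033) and Psma7 (0.998 ± 0.063), all structural. The lowest were Psma5, Psmb7 and Psma8, the last a testis-type alpha subunit with at most 0.0426 in any pool. Among the cap genes Psmd8, Psmd4 and Psmd7 were highest, with pool values from 0.829 to 0.898, 0.671 to 0.759 and 0.582 to 0.775. The chaperone genes Psmd5 and Psmd10 and the nuclear activator gene Psme3 were lowest, at 0.105 to 0.152, 0.142 to 0.183 and 0.123 to 0.162.

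The other cap genes were spread between these. Of the ATPase genes, which unfold substrates, Psmc2 ranged from 0.537 to 0.686 over the 12 pools, Psmc6 from 0.562 to 0.680 and Psmc3 from 0.546 to 0.675. Psmc5 (0.426 to 0.518) and Psmc4 (0.376 to 0.472) were lower, and Psmc1 was lowest of the ring (0.223 to 0.281). The large scaffold genes of the base, Psmd2 and Psmd1, had 0.388 to 0.466 and 0.310 to 0.421. Of the lid genes, Psmd12 had 0.510 to 0.665, Psmd6 0.410 to 0.551, Psmd3 0.397 to 0.467 and Psmd13 0.362 to 0.459. Psmd14, the deubiquitinating subunit, had 0.223 to 0.285, and the activator gene Psme4 0.163 to 0.267. None of these differed between the groups past the threshold.

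The effect of antibiotics was tested in microglia across all 8759 genes with a mean of at least 0.05, with limma on log2(pool mean + 0.05) and Benjamini-Hochberg adjustment over all of them. Of the members, 42 entered: 14 core, 5 immunoproteasome and 22 regulatory genes and the copy Psme2b, without Psma8 and Psmc3ip. Fold changes on this scale understate those of the lowest genes. One member passed the threshold of 0.05 in any of the comparisons: Psmd11, a lid subunit gene, was lower in ABX microglia at 72 weeks.

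Psmd11 had 0.637, 0.640 and 0.598 in the 72-week control pools and 0.513, 0.501 and 0.512 in the 72-week ABX pools. The ABX pools were all below the control pools. The log2 change was -0.27 (SE 0.07, limma adjusted p = 0.0272). At 12 weeks the values were 0.564, 0.638 and 0.621 in controls and 0.558, 0.580 and 0.629 in ABX pools, which overlapped (log2 change -0.04, SE 0.07, limma adjusted p = 0.877). The difference between the ages was -0.23 on the log2 scale, with a limma adjusted p of 0.645, so a difference between the ages was not shown. Over both ages the change was -0.16 (limma adjusted p = 0.0529). The call at 72 weeks was lost with no filter on low values (limma adjusted p = 0.0565) and without a trend in the prior variance (0.0552). It was also lost without control pool 1 or 2 of that age (limma adjusted p = 0.0884 and 0.102) and without ABX pool 1, 2 or 3 (0.0523, 0.0910 and 0.0514). With the log taken per cell before averaging, the call held. The log2 change of -0.09 in that setting is on another scale and cannot be compared with -0.27.

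The share of genes called sets this in proportion. At 72 weeks 1 of 42 members was called, where 3.23% of all 8759 genes were. At 12 weeks 0 of 42 were called (0.137% of genes), over both ages 0 (5.40% of genes), and for the difference between the ages 0 (0% of genes). At an unadjusted p under 0.05 there were 5, 1, 7 and 2 members in these 4 comparisons, and 1610, 928, 1852 and 579 of all genes. The 5 at 72 weeks were Psmd11, Psma1, Psma6, Psmd6 and Psmb10, the 1 at 12 weeks was Psma3, and the 2 of the difference were Psmd11 and Psma6.

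Psma1, an alpha-ring gene, had 0.672, 0.686 and 0.728 in 72-week controls and 0.597, 0.522 and 0.638 in 72-week ABX pools, without overlap (log2 change -0.23, SE 0.07, limma adjusted p = 0.0829). At 12 weeks its pools overlapped, with 0.705, 0.764 and 0.728 in controls and 0.628, 0.662 and 0.722 in ABX pools. Over both ages its change was -0.18 (limma adjusted p = 0.0530), and it passed without the cells of shared barcodes (adjusted p = 0.0497). Psma6, another alpha-ring gene, went the other way at 72 weeks, from 0.475, 0.495 and 0.455 to 0.524, 0.531 and 0.587 (log2 change 0.19, limma adjusted p = 0.145). Its difference between the ages was 0.22 (limma adjusted p = 0.720). Psmd6, a lid gene, had 0.509, 0.516 and 0.492 in 72-week controls and 0.410, 0.419 and 0.451 in ABX pools, without overlap (log2 change -0.22, limma adjusted p = 0.146). Psma3 had the smallest p at 12 weeks, with 1.25, 1.33 and 1.21 in controls against 1.12, 1.16 and 1.17 in ABX pools, and did not pass (limma adjusted p = 0.436).

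The catalytic core genes did not pass in any comparison. Psmb5 had 0.794, 0.820 and 0.763 in 12-week controls and 0.687, 0.733 and 0.772 in 12-week ABX pools. At 72 weeks it had 0.716, 0.752 and 0.740 in controls and 0.670, 0.717 and 0.672 in ABX pools. The ABX pools overlapped the controls at both ages, and the change over both ages was -0.10 (SE 0.04, limma adjusted p = 0.173). Psmb6 had 0.806, 0.911 and 0.844 against 0.776, 0.767 and 0.842 at 12 weeks, and 0.867, 0.873 and 0.845 against 0.813, 0.809 and 0.836 at 72 weeks. Its pools overlapped at 12 weeks and not at 72 weeks (change at 72 weeks -0.07, limma adjusted p = 0.601). Psmb7 had 0.459, 0.487 and 0.473 against 0.440, 0.460 and 0.462 at 12 weeks, and 0.481, 0.487 and 0.402 against 0.421, 0.408 and 0.520 at 72 weeks, overlapping in both.

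The immunoproteasome genes also stayed short of the threshold under antibiotics. Psmb8 had 1.30, 1.40 and 1.45 in 12-week controls and 1.37, 1.28 and 1.38 in 12-week ABX pools, then 1.52, 1.52 and 1.48 in 72-week controls and 1.49, 1.43 and 1.59 in 72-week ABX pools. Control and ABX pools overlapped at both ages, and the 95% interval of the change over both ages was -0.11 to 0.07 on the log2 scale. Psmb10 had the most negative change of the set, with 0.622, 0.646 and 0.653 against 0.541, 0.561 and 0.641 at 12 weeks. At 72 weeks it had 0.621, 0.685 and 0.619 in controls against 0.514, 0.542 and 0.621 in ABX pools, where only ABX pool 3 reached the controls. Its change over both ages was -0.16 (SE 0.05, limma adjusted p = 0.0890).

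Psmb9 had 0.483, 0.513 and 0.503 in 12-week controls against 0.442, 0.446 and 0.477 in ABX pools, without overlap, and did not pass (log2 change -0.12, limma adjusted p = 0.505). The PA28 gene Psme1 had 1.20, 1.20 and 1.22 against 1.25, 1.22 and 1.27 at 12 weeks, and 1.36, 1.37 and 1.42 against 1.30, 1.41 and 1.52 at 72 weeks. Psme2 had 0.582, 0.621 and 0.596 against 0.575, 0.566 and 0.614, and then 0.590, 0.660 and 0.609 against 0.590, 0.662 and 0.693. For both PA28 genes the change over both ages had an interval within 0.12 of 0 on the log2 scale, from -0.05 to 0.12 for Psme1 and from -0.09 to 0.11 for Psme2.

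**Figure D4:**
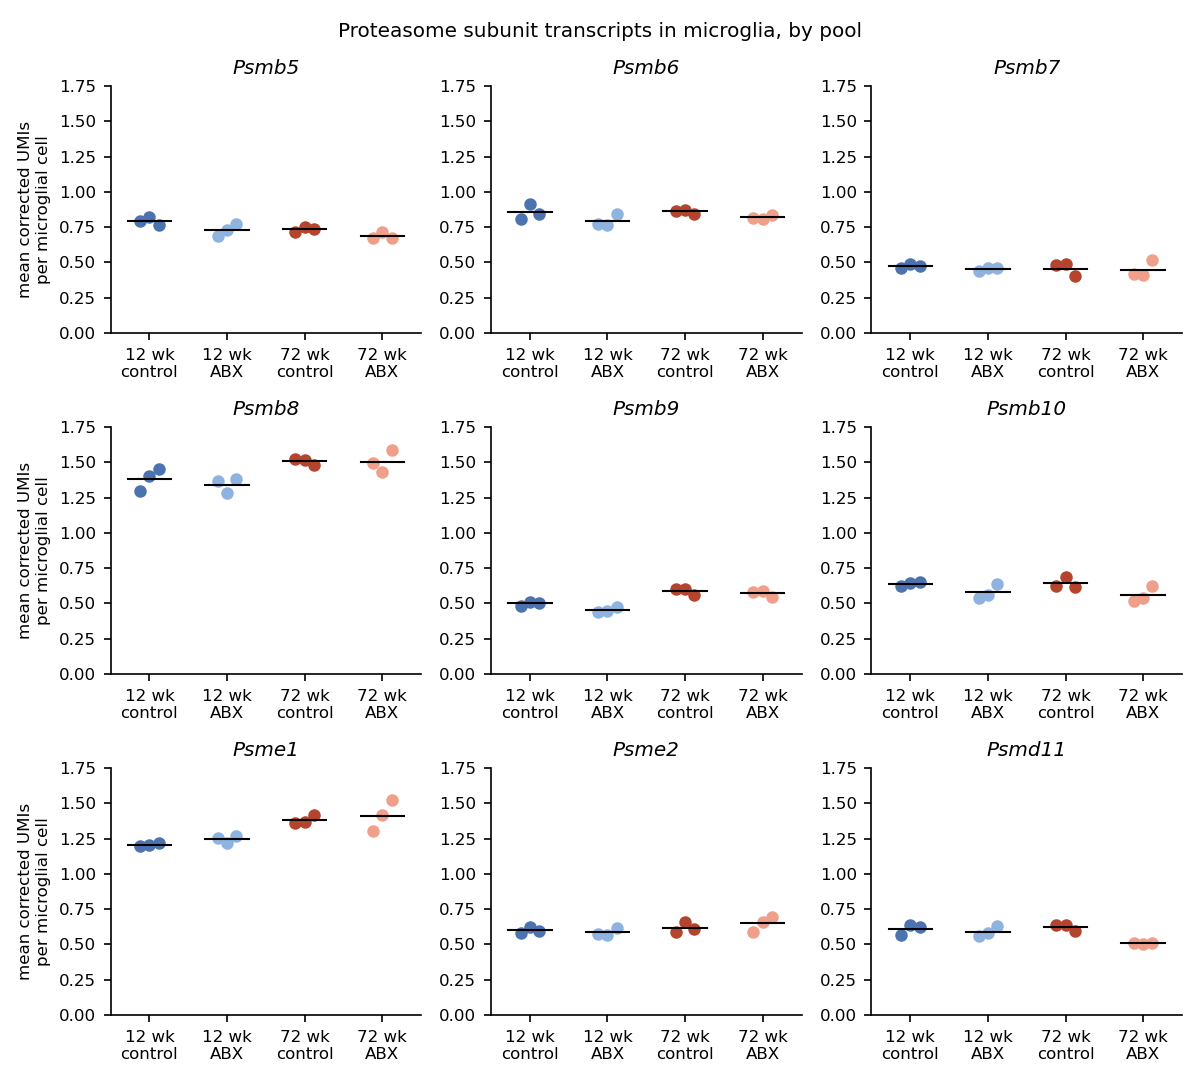
Level in microglia (corrected UMI value per cell, vertical axes) of Psmb5, Psmb6, Psmb7, Psmb8, Psmb9, Psmb10, Psme1, Psme2 and Psmd11 in the 12 pools, by group, with the mean of each group of 3 as a line. Psmd11 is lower in all 3 ABX pools at 72 weeks (0.501 to 0.513 against 0.598 to 0.640), and Psmb9 and Psme1 are higher in 72-week than in 12-week controls.

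All 42 members had 95% intervals within 1.5-fold of no change in each of the comparisons, so larger changes of these genes in the pools studied lie outside the intervals. The same held for 97.9% of all genes at 12 weeks, 96.5% at 72 weeks, 98.8% over both ages and 91.6% for the difference. At 12 weeks 38 of 42 members had a log2 change below 0 (90.5%, against 57.4% of all genes), with a median of -0.05 against -0.02. All 14 core genes were among them. With pool means scaled to the same corrected total, 34 of 42 were below 0 (81.0%, against 50.7%). Beside this, the median raw UMI count per microglial cell was 6847, 6780.5 and 7193 in the 12-week control pools and 6415, 6411 and 7028.5 in the ABX pools, and its part in the result was not tested. At 72 weeks 27 of 42 members were below 0 (64.3%, against 51.8% of all genes), with a median of -0.02 against -0.01. Over both ages 34 were below 0 (81.0%, against 55.2%), with a median of -0.05 against -0.01.

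**Figure D5:**
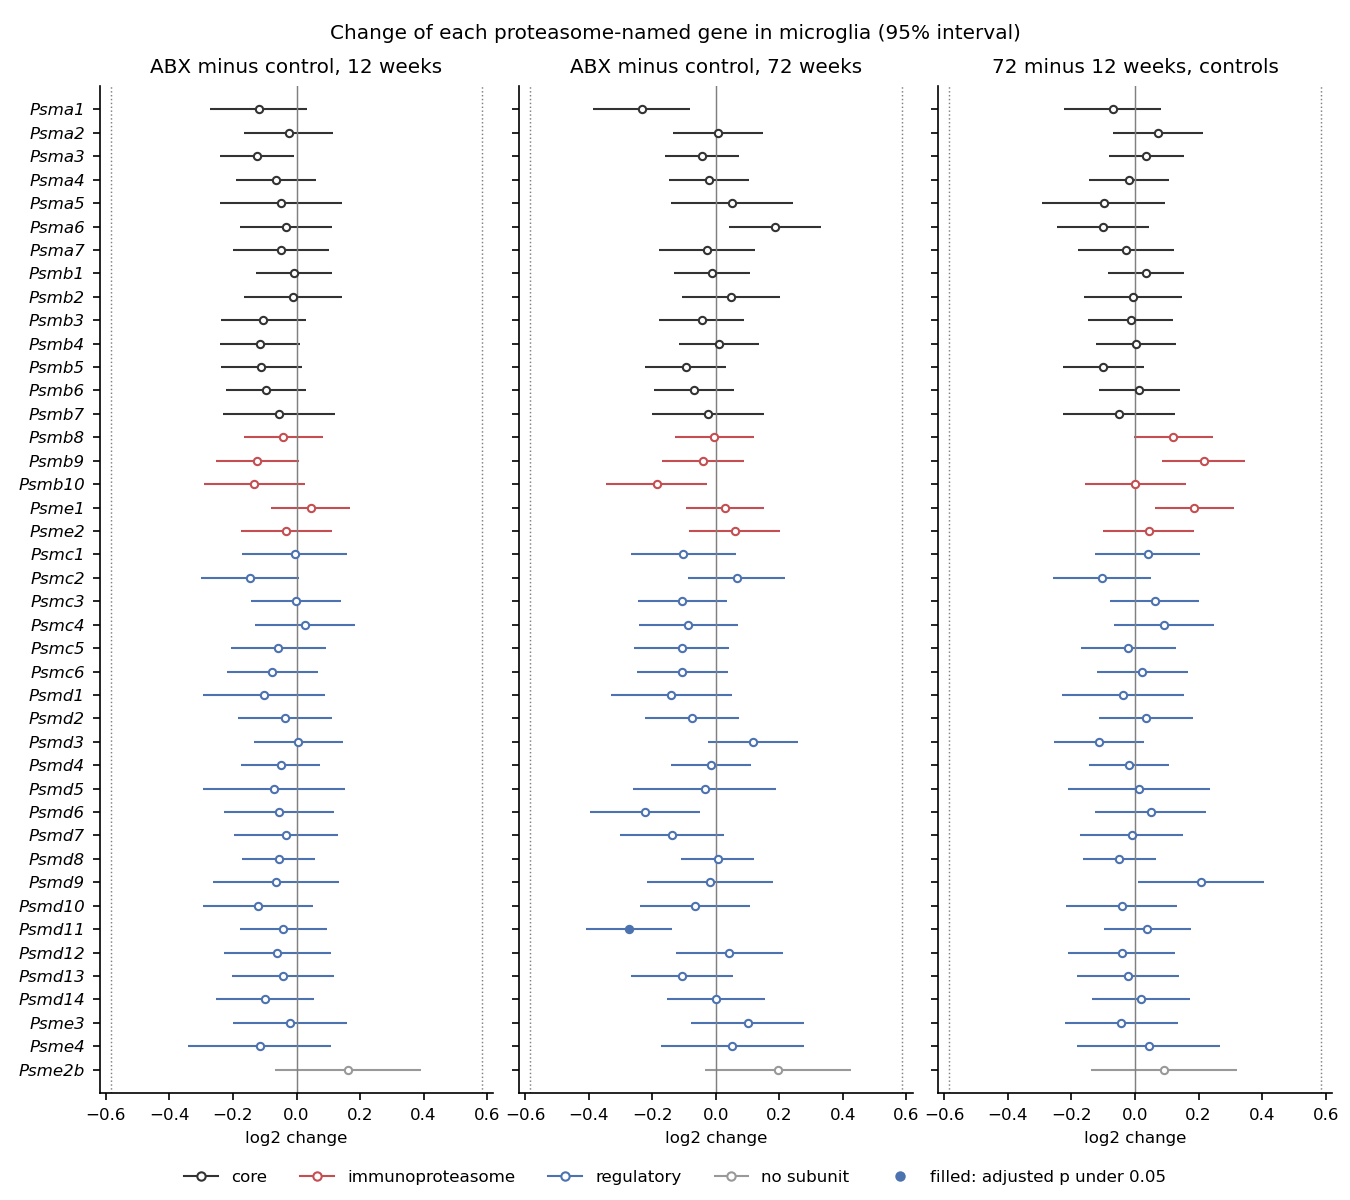
Log2 change in microglia (horizontal axis) of the 42 members tested, with 95% intervals, for antibiotics at 12 weeks, antibiotics at 72 weeks and age in controls; filled points have a limma adjusted p under 0.05 and dotted lines mark 1.5-fold. Psmd11 at 72 weeks is the single filled point (log2 change -0.27), and every interval lies between the dotted lines.

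Age was compared in the control microglia, with the wells confounded with it. Here 0 of 42 members were called, where 2.66% of genes were, and 3 members (Psmb9, Psme1 and Psmd9) against 1136 of all genes had an unadjusted p under 0.05. The members' median log2 change was 0.00, against 0.02 for all genes. Psmb9 had 0.483, 0.513 and 0.503 at 12 weeks and 0.600, 0.603 and 0.563 at 72 weeks, with no overlap (log2 change 0.22, SE 0.06, limma adjusted p = 0.0783). It passed among cells with at least 2000 raw UMIs (log2 change 0.26, adjusted p = 0.0180). Psme1 went from 1.20, 1.20 and 1.22 to 1.36, 1.37 and 1.42 (log2 change 0.19, SE 0.06, limma adjusted p = 0.120), and Psmb8 from 1.30, 1.40 and 1.45 to 1.52, 1.52 and 1.48 (0.12, SE 0.06, limma adjusted p = 0.407), neither with overlap. Psmb10 (log2 change 0.00) and Psme2 (0.04) overlapped between the ages. Psmb5 had the opposite sign, -0.10, without overlap and without passing (limma adjusted p = 0.538). Psmd9, a cap assembly chaperone gene, had 0.221, 0.215 and 0.204 at 12 weeks and 0.252, 0.288 and 0.225 at 72 weeks, also without overlap (log2 change 0.21, SE 0.09, limma adjusted p = 0.356).

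The summed immunoproteasome level was 4.19, 4.39 and 4.42 in the 12-week controls and 4.69, 4.83 and 4.69 in the 72-week controls, whereas the core sum overlapped, with 10.69, 11.31 and 10.77 against 10.67, 10.99 and 10.73. Markers of other cells differed between the same pools. The summed B cell markers in cells called microglia were 0.371 to 0.464 in 12-week and 1.05 to 1.28 in 72-week controls, the CD8+ markers 0.0197 to 0.0282 and 0.0476 to 0.121. The neutrophil markers summed to 2.24 to 6.29 and 0.626 to 0.707, and the microglial markers to 90.4 to 95.3 and 81.6 to 89.7. Their part in the result was not tested.

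The genes around the proteasome were taken from 4 lists. Of 14 tested genes for assembly and cofactors (Pomp, the Psmg chaperones, Adrm1, Usp14 and others), 0 passed in any comparison in microglia. The same was true of 7 regulators of proteasome gene transcription such as Nfe2l1 and Nfe2l2. Of all 8759 genes, 0% (difference between the ages) to 5.40% (antibiotics over both ages) were called in these comparisons. With lists this short, a count of 0 cannot set them apart from all genes.

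Of 11 class I presentation genes, 1 fell under antibiotics at 72 weeks, where 3.23% of all genes were called: Calr, the chaperone calreticulin, with 4.23 ± 0.27 in controls and 3.10 ± 0.035 in ABX pools (log2 change -0.44, limma adjusted p = 0.00242). Over both ages its change was -0.37 (limma adjusted p = 0.000370). With age, where 2.66% of all genes were called, 3 of the 11 rose, namely B2m (0.36), H2-D1 (0.32) and H2-K1 (0.30), the light and heavy chains of the complex that displays proteasome products. The B cell, CD8+, neutrophil and microglial marker sums given above differed between the same pools, and their part in these changes was not tested. H2-D1 and H2-K1 are similar enough that the split of reads between them is uncertain. B2m averaged 8.82 ± 0.22 in 12-week and 11.4 ± 0.53 in 72-week controls (SD, n = 3 pools). Tap1 and Tap2 did not pass with age (log2 change 0.16 and -0.13). Of 13 interferon signalling genes, Irf8, a transcription factor of the microglial lineage, fell at 72 weeks from 3.83 ± 0.24 to 3.02 ± 0.21 (log2 change -0.34, limma adjusted p = 0.00610) and over both ages (-0.26), and Ifngr1, an interferon-gamma receptor gene, fell with age (-0.25, limma adjusted p = 0.0230). The median log2 change of the 4 lists lay between -0.08 and 0.01 for antibiotics at 72 weeks (all genes -0.01) and between -0.01 and 0.08 with age (all genes 0.02). No comparison between lists was tested.

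Of the other types, Ly6CLow cells had at least 20 cells in every pool and were fitted in the same way. None of 42 members passed for antibiotics at 12 weeks, at 72 weeks, over both ages or for the difference (0 of 42 and 0% of 8613 genes in each), and 0 passed with age, where 0.755% of genes did. At an unadjusted p under 0.05 the counts were 0, 2, 0 and 0 for antibiotics and 10 with age. Of all 8613 genes, 365, 535, 525 and 428 were under it for antibiotics and 1393 with age. With age 38 of 42 members were below 0 (90.5%, against 68.2% of all genes), with a median log2 change of -0.28 against -0.21. The lid gene Psmd13 (-1.01, SE 0.29, limma adjusted p = 0.115) and the base gene Psmd2 (-0.76, SE 0.24, limma adjusted p = 0.129) had the smallest p with age, and Psmd1 (0.89) and Psmd13 (0.68, limma adjusted p = 0.759 for both) for antibiotics at 72 weeks. The median raw UMI count was 11010 in the 12-week and 6546 in the 72-week control cells, and its part in the result was not tested. Without 72-week control pool 3, 3 members passed with age, and the share of all genes called there is not reported.

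BAM and BCells reached at least 10 cells in every pool, and 0 of 42 members passed in any of the 5 comparisons. In BAM 0.0224% of 8942 genes were called for antibiotics at 12 weeks, 0.123% at 72 weeks, 0.0559% over both ages, 0% for the difference and 0.0447% with age. In BCells 0% of 8383 genes were called in the 4 antibiotic comparisons and 0.0596% with age. The median SE of a member was 0.27 in BAM and 0.34 in BCells for antibiotics at 72 weeks, against 0.07 in microglia, so only larger changes were detectable there.

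CD8+ cells and Ly6CHigh cells had too few cells in some pools for a fit, and their group ranges are given as a description. In CD8+ cells Psmb8 had 5.29 to 5.47 in the 12-week control pools (n = 2), 5.67 to 7.45 in 12-week ABX pools (n = 3), 6.72 to 7.17 in 72-week controls (n = 3) and 6.42 to 6.82 in 72-week ABX pools (n = 3). The 12-week ABX pools were also high for Psmb5 (1.33 to 1.44 against 0.765 to 1.06 in controls) and for Psma7 (2.13 to 2.61 against 1.41 to 1.42). Those groups had 53 cells each, of which 5 control cells were in a pool left out of these ranges. The median over all 53 was 9326 raw UMIs in ABX and 7272 in control cells, and its part in the result was not tested. In Ly6CHigh cells Psma7 had 4.69 to 5.15 in 12-week controls and 2.65 to 3.82 in the 72-week ABX pools, the group with the lowest depth.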

How the data were processed

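The deposited RNA table holds SCTransform-corrected UMI values made by the authors, a score of whole numbers per gene and cell that is no longer a raw count; the raw UMI count per cell came from the deposited metadata, as did hashtag pools and cell types. Per the submitters' processing notes Cell Ranger 3.0.2, Seurat 3.0.1 and the build mm10 were used; the covariates of the correction are not given in the sources used here. The antibody tables and 33 metadata columns were not used.

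Corrected values were averaged over the cells of a type in each of 12 pools, the replicates. Genes with a mean of at least 0.05 were fitted with limma 3.58.1 (R 4.3.3) on log2(mean + 0.05) over all 4 groups with a trended prior variance, and p-values were Benjamini-Hochberg adjusted over all genes tested. The fits were tested on simulated data. Levels by type use pools with at least 10 cells, fits at least 20 cells in every pool. Always named were the immunoproteasome genes, Psmb5, Psmb6 and Psmb7. Added were members past the threshold or, where none passed, the 2 with the smallest p, the 3 highest and 3 lowest of each class in microglia, and list genes past the threshold; others singled out were chosen after their values were seen. The members and lists were chosen with earlier results of these data known. Alternatives were another pseudocount, no filter, other scalings, deeper or depth-matched cells, a hashtag block, leaving out each pool and, chosen after seeing the data, leaving out barcodes shared by the wells. The ubiquitin list is not reported here.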

Additional observations from a re-analysis of the deposited data

How the results depend on the processing

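Of 242 counts and shares recomputed under alternatives, 224 stayed within the set limits, and of 992 changes of single named members 970 stayed on the same side of the threshold and 47 turned sign, 0 of these called before or after. In microglia at 72 weeks, the 1 member called under antibiotics became 0 with no filter on low values (Psmd11 limma adjusted p = 0.0565, 105 of 18650 genes called). Without a trend in the prior variance it became 0 as well (limma adjusted p = 0.0552, 228 of 8759 genes called). With the hashtag number as replicate block the count was also 0 (Psmd11 limma adjusted p = 0.266), but antibiotic effects in that fit are not differences of group means. The count ranged from 0 to 1 when each pool was left out, with 109 to 304 of all genes called. Without 72-week ABX pool 3 it stayed at 1 (233 of 8742 genes called), although Psmd11 did not pass there (limma adjusted p = 0.0514). Which other member passed in that setting is not given here. Over both ages the 0 members became 3 with the log taken per cell and 3 among cells with at least 2000 raw UMIs (Psma1, Psmb10 and Psmd11). Of all genes, 655 of 8759 and 711 of 8833 were called under these 2 settings. The 0 members became 1 without shared barcodes (Psma1), where 486 of 8754 genes were called, and ranged from 0 to 3 when each pool was left out. There was 1 without 12-week control pool 1 (384 of 8780 genes called) and 3 without 12-week ABX pool 3 (528 of 8758). Without 72-week ABX pool 3 there were 2 (505 of 8742). With age the 0 became 1 among cells with at least 2000 raw UMIs (Psmb9), where 266 of 8833 genes were called. In Ly6CLow cells with age the range was 0 to 3 over the pools left out (3 without 72-week control pool 3, the share of all genes called there not being reported). Members below microglia in every pool went from 0 to 1 in Ly6CHigh per 10000 corrected UMIs, and in Ly6CLow from 2 to 4 among cells with at least 2000 raw UMIs and to 7 per 10000 (21.2% and 23.4% of all genes there). The cause was not tested.

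Hashtag numbers did not pair the pools: the correlation of same-numbered deviations was 0.07, 0.11, 0.01, -0.09, 0.06 and -0.04 for hashtags 1 to 6. With the replicate block 0 members were called in each of the 5 comparisons. Control and ABX pools carried different hashtags. In that fit the antibiotic effects at 12 weeks, at 72 weeks and over both ages were therefore not differences of group means. They were taken between the first ABX hashtag and the first control hashtag. Among all genes the block left 22 called at 72 weeks and 12 over both ages, against 283 and 473. For that reason these counts cannot tell how firm the antibiotic calls are. Few cells per pool limit the types other than microglia, and 3 pools a group limit all tests.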
